A study of Mus musculus with 21 samples.

Results

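The 10 genes described here encode components of the Notch pathway: the ligands Dll1, Jag1 and Jag2, the receptors Notch1, Notch2 and Notch3, the DNA-binding partner Rbpj, and the target genes Hes1, Hey1 and Heyl. They were chosen by name, and all 10 were found among the 19300 protein-coding genes of at least 2 kb on chromosomes 1 to 19, X and Y of the RefSeq table for GRCm38.p6. The measurement was chromatin immunoprecipitation with sequencing (ChIP-seq) of H3K36me3, the trimethylated form of lysine 36 on histone H3, in C2C12, a mouse myoblast line that fuses into muscle cells in culture. Wild-type (WT) cells gave 2 replicate libraries at day 0, at day 1 in control medium, at day 1 under methionine restriction, at day 5 in control medium and at day 5 under methionine restriction. Of 2 lines labelled as Setd2 knockout (KO), each gave 1 library in each of these 5 conditions, so a KO line has no replicate within a condition. The peak names inside the KO lists number these libraries as replicates 1 and 2 of a KO group, and the labels were followed. The labels do not say that the WT replicates were separate cultures, so p-values measure only the spread between these libraries, which may be technical.

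In the Notch pathway a ligand on the surface of a cell binds a receptor on its neighbour, and the receptor is then cut by ADAM proteases and by γ-secretase. The freed intracellular domain enters the nucleus, joins RBPJ on DNA and switches on genes of the Hes and Hey families, which encode repressors. In muscle, Notch signalling is known for holding myoblasts and satellite cells back from differentiation. H3K36me3 is placed by SETD2 behind elongating RNA polymerase II, so it lies over the bodies of transcribed genes and usually thickens towards their 3′ ends.

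The value used throughout is cover, the percent of a gene's body that lies inside the merged peaks of a library. Differences are in percentage points of cover. Cover reports the extent of called peaks and not their height, and in a bulk culture fewer marked cells and less mark per cell cannot be told apart. WT libraries at day 0 and in control medium covered 140 to 183 Mb, and restricted WT libraries covered 110 to 134 Mb. KO line 1 covered 0.307 to 74.1 Mb and KO line 2 covered 0.00821 to 7.13 Mb. Cover of Setd2 itself was 45.6% to 82.8% in WT libraries, 0% to 24.0% in KO line 1 and 0% in all 5 libraries of KO line 2; peaks there report the mark and not the protein. Summed over 8 muscle genes (Myod1, Myf5, Des, Myog, Mef2c, Ckm, Myh3 and Acta1), cover in WT was 151% at day 0 and 297% to 322% at day 1 and 535% to 547% at day 5 in control medium. Under restriction the sum was 34.5% to 59.8% at day 1 and 114% to 123% at day 5, and Des alone had cover in all 10 WT libraries. Markers of leukocytes (Ptprc), endothelium (Pecam1, Cdh5), epithelium (Epcam, Cdh1), adipocytes (Adipoq, Plin1) and glia (Sox10) were at 0% in all WT libraries, except Cdh1 at 0.438% in 1 of them.

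The promoters of the genes are shown first because no peak reached those matched. RefSeq promoters were matched by symbol for 7 of the 10 genes, 9 promoters in all, and not for Hes1, Hey1 and Heyl. None of the 250 bases upstream of these 9 start sites lay inside a peak in any of the 10 WT or 10 KO libraries. The 3 below hold the letters of an RBPJ core (TGGGAA, either strand) or of an E-box bound by myogenic factors (CAGCTG, the same on both strands), with those letters in capitals. They are 5′ to 3′ on the gene's strand, in the GRCm38.p6 build: Dll1 at chr17:15376933-15377182 (minus strand), Jag1 at chr2:137116521-137116770 (minus strand) and Rbpj at chr5:53590096-53590345 (plus strand).
Dll1: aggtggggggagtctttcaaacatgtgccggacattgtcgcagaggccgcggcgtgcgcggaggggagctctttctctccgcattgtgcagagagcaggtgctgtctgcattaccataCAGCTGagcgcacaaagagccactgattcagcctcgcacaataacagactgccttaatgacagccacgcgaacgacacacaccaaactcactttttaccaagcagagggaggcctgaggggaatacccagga
Jag1: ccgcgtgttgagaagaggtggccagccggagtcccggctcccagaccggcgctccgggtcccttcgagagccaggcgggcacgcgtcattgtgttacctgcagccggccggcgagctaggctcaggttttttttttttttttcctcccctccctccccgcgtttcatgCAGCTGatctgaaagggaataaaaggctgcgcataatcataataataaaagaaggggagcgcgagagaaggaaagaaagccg
Rbpj: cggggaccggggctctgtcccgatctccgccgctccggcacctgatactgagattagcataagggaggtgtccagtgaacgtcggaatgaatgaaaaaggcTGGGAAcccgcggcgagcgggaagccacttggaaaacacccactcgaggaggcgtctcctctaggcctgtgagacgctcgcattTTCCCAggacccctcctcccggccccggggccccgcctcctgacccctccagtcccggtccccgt
Dll1 and Jag1 each held 1 CAGCTG, and Rbpj held 2 RBPJ cores that do not overlap, 1 on each strand. Both Rbpj promoters of the table lie within the annotated body, and the second, which overlaps the one printed, held 1 core, and the remaining 5 promoters held neither motif. The E-box CACGTG, the same on both strands, was in none of the 9. Over 250 upstream bases of all 32851 promoters of the table, 21.6% held TGGGAA on either strand, 13% held CAGCTG and 6.02% held CACGTG. A match of letters is a description and not a binding site.

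Among the ligands, Dll1 varied most from condition to condition. Dll1, the Delta-type ligand of myoblasts, lies on the minus strand at chr17:15367354-15376932. Its cover was 5.47% and 9.82% in the day 0 libraries. At day 1 it was 71.5% and 65.6% in control medium but 6.19% and 8.59% under restriction. At day 5 it was 61.4% and 52.2% in control medium and 37.3% and 41.1% under restriction. The order of the levels was day 1 control, day 5 control, day 5 restricted, and then day 0 and day 1 restricted, whose libraries overlapped; no other neighbours in this order overlapped.

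Jag1, a Serrate-type ligand at chr2:137081451-137116520, ran the other way. It was covered to 32.6% and 33.8% at day 0 and to 14.6% and 12.1% at day 1 in control medium. Under restriction at day 1 the libraries gave 23.5% and 14.4%. At day 5 they gave 30.9% and 28.2% in control medium and 36.5% and 35.8% under restriction. The day 1 control and day 1 restricted libraries overlapped, and both restricted libraries of day 5 lay above all other WT libraries. Jag2, the related ligand at chr12:112907803-112929812, was covered more widely, to 73.5% and 86.1% at day 0. In control medium Jag2 was at 70.4% and 67.1% at day 1 and at 75.7% and 75.6% at day 5. Restricted, it was at 63.8% and 56.3% at day 1 and at 59.1% and 59.3% at day 5, below every control library of the same day.

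The 3 receptors were covered over most of their length in control medium and over less of it in every restricted library. Notch1, at chr2:26457902-26503822, had 79.3% and 86.0% at day 0, 92.3% and 84.8% at day 1 and 85.9% and 78.6% at day 5 in control medium. The restricted libraries of Notch1 gave 58.1% and 53.9% at day 1 and 57.3% and 60.5% at day 5. The 4 restricted libraries of Notch1 lay below the other 6, with no overlap.

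Notch2, the longest of the 10 genes at 136.83 kb (chr3:98013538-98150367, plus strand), had 71.3% and 72.5% at day 0, 71.2% and 71.5% at day 1 and 76.5% and 71.0% at day 5 in control medium. Restriction gave 46.6% and 44.1% at day 1 and 48.6% and 50.2% at day 5. Its 6 unrestricted libraries overlapped among themselves and stood apart from the restricted ones. Notch3, at chr17:32120820-32166896, had 83.6% and 79.5% at day 0, 95.1% and 93.3% at day 1 and 87.2% and 85.8% at day 5 in control medium. Restriction gave 72.2% and 56.6% at day 1 and 65.1% and 64.8% at day 5, again below the other 6. Of the Notch3 body, 30.0% is shared with the lncRNA genes Gm38585 and Gm41568, and peaks there cannot be assigned to either gene; with the shared bases left out, the Notch3 calls given below did not change.

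Rbpj, at chr5:53555779-53657445, encodes the DNA-binding protein through which all 4 Notch receptors act, and it was the least covered of the 10 genes on average over the WT libraries. Its cover was 26.3% and 15.4% at day 0, 11.02% and 16.99% at day 1 and 27.8% and 22.6% at day 5 in control medium. Restricted libraries gave 11.2% and 10.5% at day 1 and 10.4% and 9.57% at day 5. The day 1 libraries of both media overlapped, and at day 5 the media did not overlap. Because 3 pseudogene copies carry the Rbpj name in the table and reads can be shared with them, Rbpj values are uncertain.

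The 3 target genes encode basic helix-loop-helix repressors, and they were the members with least cover under restriction. Hes1, a compact gene of 2.44 kb at chr16:30065357-30067796, was covered to 59.5% and 63.6% at day 0, to 64.0% and 61.4% at day 1 and to 63.5% and 41.8% at day 5 in control medium. It was listed at 0% in all 4 restricted WT libraries. Hey1, of 3.68 kb at chr3:8663359-8667038, had 33.2% and 26.2% at day 0, 72.8% and 43.3% at day 1 and 21.6% and 29.0% at day 5 in control medium, with 0% again in those 4 restricted libraries. Both genes therefore had a peak in every unrestricted WT library and in no restricted WT library. The authors' highest −log10 q over Hey1 was only 1.97 and 2.61 at day 0. At day 5 in control medium it was 2.63 and 2.96. Over Hes1 it ran from 5.34 to 12.7 in the unrestricted libraries. The muscle gene Myod1 was likewise at 0% in the restricted WT groups and covered in the others. The share of all genes with this pattern was not counted. Heyl, of 16.315 kb at chr4:123233556-123249870, had 13.4% and 18.3% at day 0 and 71.3% and 77.8% at day 1 in control medium, the widest span of the 3. At day 5 in control medium Heyl had 53.6% and 41.4%. Under restriction it was at 0% in both libraries of day 1 and at 2.32% and 5.21% at day 5.

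**Figure D1:**
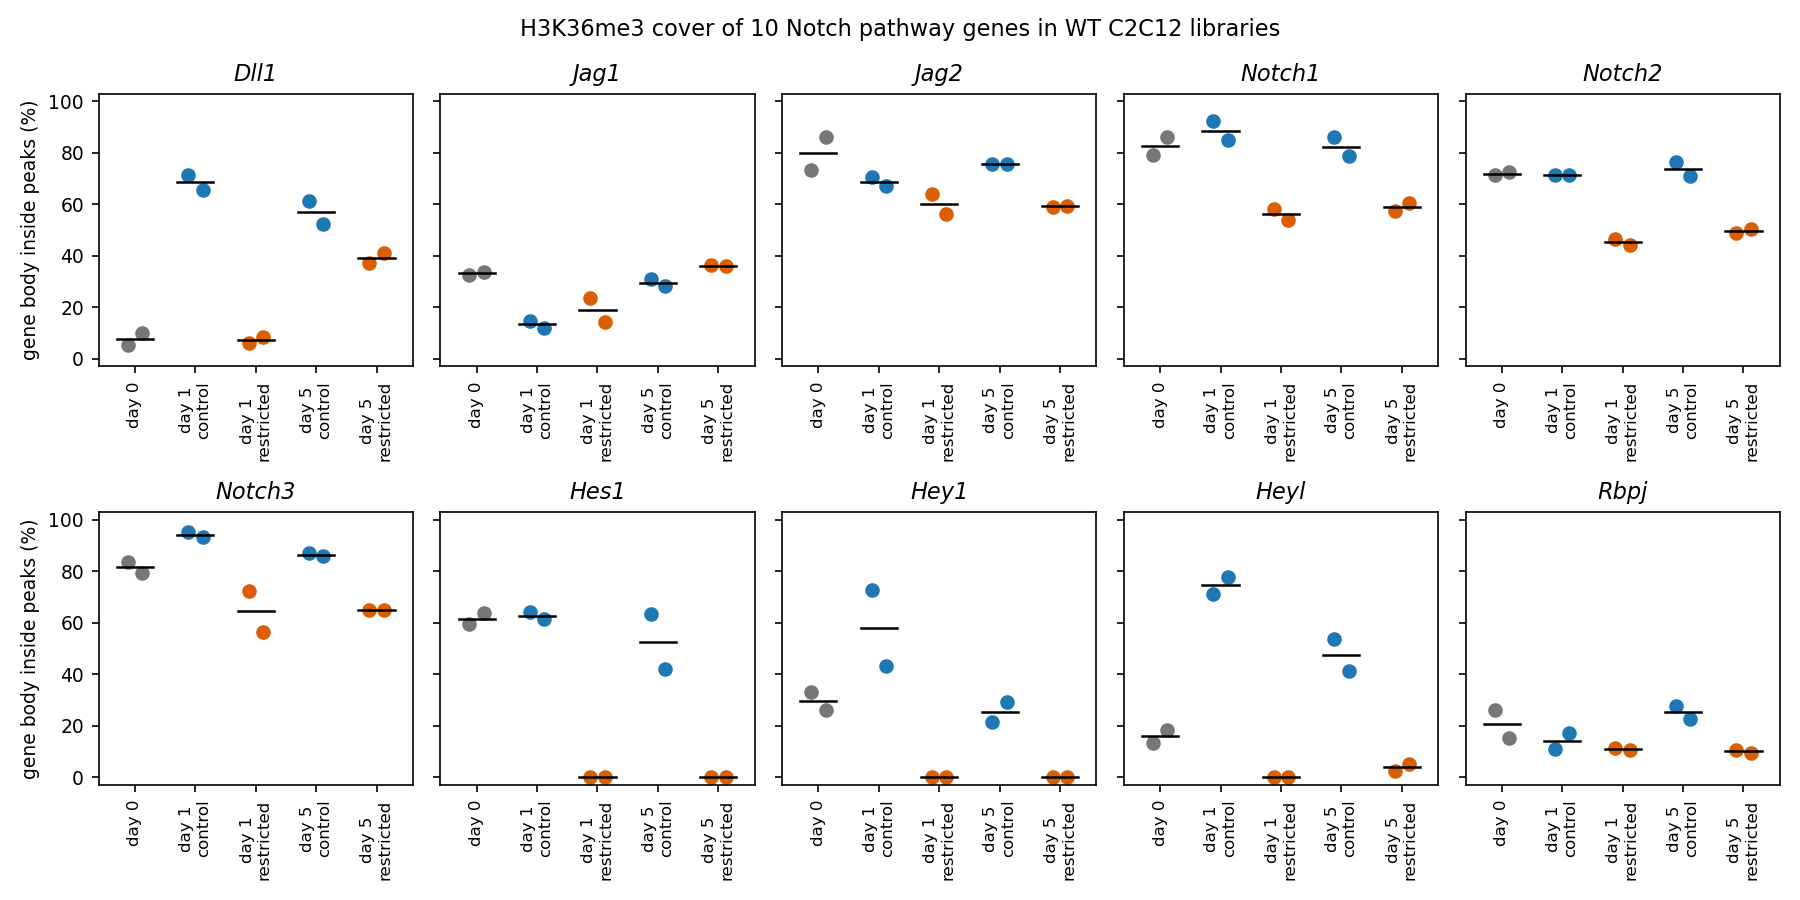
Percent of each gene body inside H3K36me3 peaks (y axis) in the 10 WT libraries, by day and medium (x axis). Points are single libraries (grey day 0, blue control, orange restricted) and black lines the mean of 2. Dll1 and Heyl are highest at day 1 in control medium, and Hes1 and Hey1 are at 0% in all 4 restricted libraries.

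Differentiation in control medium was followed over day 0, day 1 and day 5. From day 0 to day 1 cover rose over Dll1 and Heyl and fell over Jag1. From day 1 to day 5 it fell over Heyl and Hey1 and rose over Jag1, so that Jag1 at day 5 was 3.70 points below day 0, short of the threshold. The 3 receptors, Jag2, Hes1 and Rbpj passed the test in none of the 3 comparisons as fitted here. After centring each library on its median, Notch3 passed at 21.1 points from day 0 to day 1 (limma, BH-adjusted p = 0.0126) and at −13.8 for day 5 against day 1 (BH-adjusted p = 0.0204), where it also passed with only the libraries compared (BH-adjusted p = 0.0359). With lists of equal covered length Notch1 passed at −18.3 for day 5 against day 1 (BH-adjusted p = 0.0162). Without replicate 1 of day 5 control Hes1 passed, at −20.8 points against day 1 and −19.7 against day 0. Rbpj passed for day 5 against day 1 without either day 0 library, and Notch3 for day 1 against day 0 and day 5 against day 1 without either restricted library of day 1.

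The mean of Dll1 was 7.65% ± 3.08 (SD, n = 2) at day 0 and 68.6% ± 4.15 (SD, n = 2) at day 1. Dll1 rose by 60.9 points ± 4.41 (SE; limma, Benjamini-Hochberg (BH) adjusted p = 0.000557) and Heyl by 58.7 points ± 4.65 (BH-adjusted p = 0.000924). Jag1 fell by 19.9 points ± 3.68 (BH-adjusted p = 0.0194). Hey1 differed by 28.3 points ± 8.09 and missed the threshold (BH-adjusted p = 0.0742); it was 13.6 points without replicate 1 of day 1 control, 43.1 without replicate 2 (BH-adjusted p = 0.0127) and 58.0 with only the peaks that the authors give a −log10 q of at least 3 (BH-adjusted p = 0.00796). Notch3 differed by 12.6 points ± 4.55 (BH-adjusted p = 0.133). Of all 9512 genes tested, 0.967% were called with more cover and 5.65% with less, against 2 and 1 of the 10 members. The median difference was 3.54 points over the members and −5.30 over all genes.

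From day 1 to day 5 Heyl fell by 27.1 points ± 4.65 (limma, BH-adjusted p = 0.00387) and Hey1 by 32.7 points ± 8.09 (BH-adjusted p = 0.0209). Jag1 rose by 16.2 points ± 3.68 (BH-adjusted p = 0.0143). Dll1 was 11.7 points lower on average at day 5, with a BH-adjusted p of 0.0923, and passed at −17.8 after centring (BH-adjusted p = 0.0287) and −20.5 at a −log10 q of at least 3 (BH-adjusted p = 0.0134). Here 17.1% of all genes were called with more cover and 5.95% with less, against 1 and 2 members, and the medians were −7.00 points over the members and 3.89 over all genes. Between day 0 and day 5, Dll1 rose by 49.2 points ± 4.41 (BH-adjusted p = 7.22e-05) and Heyl by 31.6 points ± 4.65 (BH-adjusted p = 0.0013), where 12.2% of all genes were called with more cover and 15.6% with less. The comparisons share the day 0, day 1 and day 5 control libraries, so their values are not independent.

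With a spread estimated from the day 0 and day 1 control libraries alone, Dll1, Heyl and Jag1 lost the call of day 1 (limma, BH-adjusted p = 0.135, 0.135 and 0.142), and with lists of equal covered length Jag1 was at 0.227 points; Jag1 also lost it without replicate 1 of day 0 or either day 1 control library (highest BH-adjusted p = 0.114). From day 1 to day 5 Jag1 was at 1.21 points with lists of equal length (BH-adjusted p = 0.933) and at 10.1 after centring (BH-adjusted p = 0.066), and it also lost its call without either day 1 control library or without replicate 1 of day 5 control, and Hey1 without either day 5 control library (highest BH-adjusted p = 0.142) or with only the libraries compared (BH-adjusted p = 0.0761); the Hey1 difference kept its call but went from −47.5 to −17.9 points with one or the other day 1 control library left out. For day 5 against day 0, Heyl was at 5.49 points with lists of equal length and lost its call (BH-adjusted p = 0.41). The median of the libraries moved by −8.48 points from day 0 to day 1; relative to it Dll1 was at 69.4, Heyl at 67.2 and Jag1 at −11.4 points (BH-adjusted p = 0.107), and the share of all calls that were for more cover was 67.6% in place of 14.6%. From day 1 to day 5 that share was 45.7% in place of 74.2%, and from day 0 to day 5 55.4% in place of 43.8%.

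The rest of the pathway was followed with a list of 49 other Notch genes, of which 33 passed the filter on cover; the ligands Dll3, Dll4, Dlk1 and Dlk2 and the receptor Notch4 had no peak in any WT library. From day 0 to day 1, Dtx4, a Deltex-family ubiquitin ligase, rose by 20.1 points, and Poglut1, an enzyme that adds glucose to Notch receptors, fell by 19.5 points; no other of the 33 was called, so each direction held 3.03% of them, beside the 0.967% and 5.65% of all genes. Between day 1 and day 5, 10 of the 33 (30.3%) were called with more cover and 2 (6.06%) with less, beside 17.1% and 5.95% of all genes. These counts include Psen2, a catalytic subunit of γ-secretase at 27.3% in day 5 control and 0% to 1.83% in the other WT groups; it passed the filter on cover only through day 5 control, so its calls had to favour that group and support nothing. Fbxw7, which marks the Notch intracellular domain for breakdown, rose by 27.5 points. Mib2 and Mib1, ubiquitin ligases that act on the ligands, rose by 28.8 and 25.1 points. Dtx4 fell by 35.3 points and the acetyltransferase gene Kat2b fell by 12.3 points. Between day 0 and day 5, 4 (12.1%) were called with more cover and 5 (15.2%) with less, shares near the 12.2% and 15.6% of all genes. Beside Psen2, Fbxw7, Neurl1a, a further ligase of ligands, and Numb, an inhibitor of Notch, were higher at day 5 by 26.2, 24.0 and 16.1 points. Lfng, a Fringe enzyme that alters receptor sugars, differed by −29.1 points, Poglut1 by −26.5, Dtx4 by −15.1 and Dtx3 by −14.6.

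Methionine restriction was compared with control medium on the same day. At day 1 restriction lowered the cover of 7 of the 10 genes: Dll1, all 3 receptors and all 3 targets. At day 5 it lowered 9 of the 10, the same 7 with Jag2 and Rbpj. Jag1 was the one member whose mean lay above control on both days, by 5.59 points at day 1 and 6.64 at day 5, short of the threshold each time.

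At day 1 Heyl fell by 74.6 points ± 4.65 (limma, BH-adjusted p = 3.26e-05) and Hes1 fell by 62.7 points ± 6.29 (BH-adjusted p = 0.000181). Dll1 fell by 61.2 points ± 4.41 (BH-adjusted p = 4.96e-05), which put both of its restricted libraries within the range of day 0. Hey1 fell by 58.0 points ± 8.09 (BH-adjusted p = 0.000906). The receptors moved less: Notch1 fell by 32.6 points, Notch3 fell by 29.8 and Notch2 fell by 26.0, with BH-adjusted p from 0.000566 to 0.00142. Jag2 and Rbpj differed by −8.66 and −3.13 points (BH-adjusted p = 0.175 and 0.567). Restriction called 36% of all genes with less cover and 2.38% with more, so the 7 of 10 members stand beside a background of genes that moved the same way. The median was −31.2 points over the members and −7.99 over all genes.

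At day 5 Hes1 and Heyl fell the most. Hes1 fell by 52.7 points ± 6.29 (limma, BH-adjusted p = 0.00031), Heyl fell by 43.7 points ± 4.65 (BH-adjusted p = 0.000178) and Hey1 fell by 25.3 points ± 8.09 (BH-adjusted p = 0.0326), close to the receptors. Among the receptors Notch2 fell by 24.3 points, Notch1 fell by 23.4 and Notch3 fell by 21.5, with BH-adjusted p from 0.000705 to 0.00554. Dll1 fell by 17.6 points ± 4.41 (BH-adjusted p = 0.0117), Jag2 fell by 16.5 points ± 4.61 (BH-adjusted p = 0.0191) and Rbpj fell by 15.2 points ± 3.91 (BH-adjusted p = 0.0135). Of all genes, 41.5% were called with less cover and 4.32% with more, and the medians were −22.5 points over the members and −9.15 over all genes. Hey1 and Jag2 each lost their call of day 5 when any one of the 4 day 5 libraries was left out, Hey1 also without either restricted library of day 1, Rbpj without replicate 1 of control or either restricted library, and Dll1 without replicate 1 of either medium; leaving out replicate 1 of either medium left 5 of the 10 members called.

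**Figure D2:**
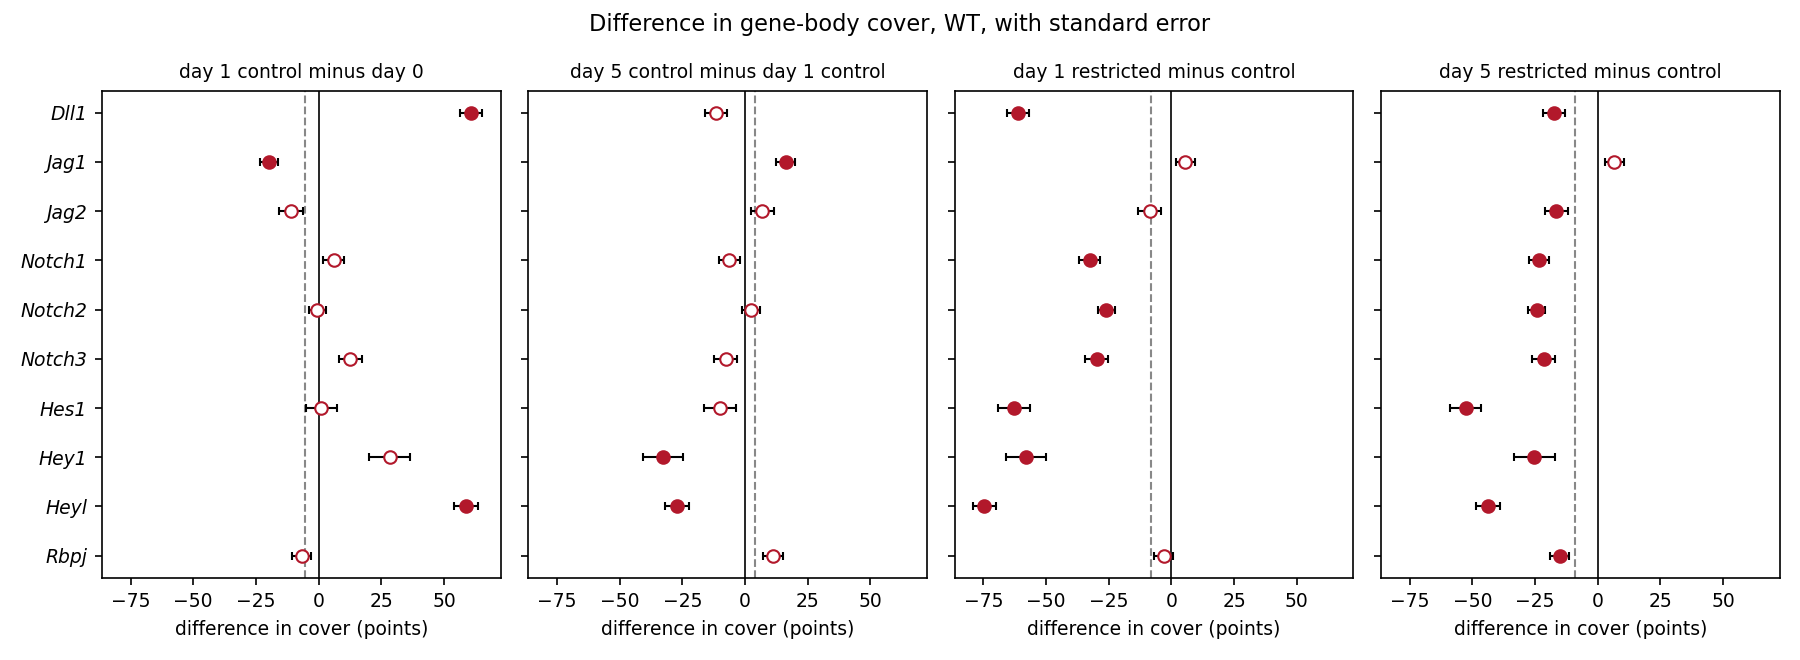
Difference in cover in percentage points (x axis) for each gene (y axis) in 4 WT comparisons, from limma. Bars are standard errors, filled points passed a BH-adjusted p of 0.05, open points did not, and the dashed line is the median of all 9512 genes. Under restriction every gene but Jag1 lies at or left of 0, and Hes1 and Heyl lie farthest left at day 5.

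The muscle genes moved with the same contrast: their summed cover was 34.5% to 59.8% under restriction against 297% to 322% in control medium at day 1, and 114% to 123% against 535% to 547% at day 5, and the part of differentiation state in the Notch gene values was not tested. Restricted libraries also had less cover in all, with library medians differing by −15.2 points at day 1 and −16.7 at day 5. Relative to that median, all 7 calls of day 1 held, Jag1 was 20.8 points higher (BH-adjusted p = 0.00166) and Rbpj turned to 12.1 points higher (BH-adjusted p = 0.0138). At day 5 Hes1 (−36.0) and Heyl (−27.1) remained called with less and Jag1 with more cover (23.3), while Notch1, Notch2, Notch3, Dll1 and Hey1 lost their calls, and Jag2 and Rbpj turned to 0.186 and 1.495 points. With lists of equal covered length Heyl at day 5 differed by −5.49 points (limma, BH-adjusted p = 0.366), Notch1 by −5.19, Notch2 by −6.94, Dll1 by −8.86 and Rbpj by −2.52, and these 5 lost their calls, while Jag1 passed at 19.7 points. At a −log10 q of at least 3 the day 5 differences of Dll1 (−8.86), Jag2 (−14.8), Rbpj (−7.82) and Hey1 (0) lost their calls. After centring, among all genes the share of calls for more cover was 73.8% in place of 6.20% at day 1 and 73.0% in place of 9.44% at day 5.

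No gene of the other pathway list was called with more cover under restriction, while 16 of the 33 tested were called with less at day 1 and 20, Psen2 included, at day 5. Among 10 tested coactivators and corepressors 7 were called at day 1 and 5 at day 5, and among 10 tested genes of trafficking and ubiquitin ligases 5 and 8. Of 8 tested proteases 3 and 5 were called, of 4 glycosyltransferases 0 and 1, and the 1 target tested was called on both days. At day 1 the differences were −46.5 points for Dtx4, −38.3 for Dtx3 and −32.8 for Aph1a, a subunit of γ-secretase that was at 0% under restriction. At day 5 they were −37.1 points for Mib2, −33.9 for Hes6, a further member of the Hes family that was at 0%, −33.1 for Dtx3 and −32.3 for Maml1, a coactivator that joins RBPJ and the intracellular domain. These shares were 48.5% and 60.6% of the 33, beside the 36% and 41.5% of all genes given above.

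The restriction effect was not of the same size on both days for Dll1 and Heyl. It was 43.55 points ± 6.23 weaker at day 5 for Dll1 (limma, BH-adjusted p = 0.0063) and 30.84 points ± 6.58 weaker for Heyl (BH-adjusted p = 0.0343). Hey1 differed between days by 32.7 points and missed the threshold (BH-adjusted p = 0.152); it was 17.9 points without replicate 1 of day 1 control and passed at 47.5 without replicate 2 (BH-adjusted p = 0.00938) and at 58.0 with a −log10 q of at least 3 (BH-adjusted p = 0.0316). Among all genes, 1.62% were called in this direction and 3.58% in the other, and the members' median was 8.71 points against −0.370 for all genes. Different libraries carried the difference in the 2 genes. The restricted mean of Dll1 was 7.39% ± 1.70 (SD, n = 2) at day 1 and 39.2% ± 2.69 (SD, n = 2) at day 5. For Heyl the restricted means were near 0% on both days and the control mean went from 74.6% to 47.5%. The Heyl difference lost its call in 9 of 18 alternatives, among them the omission of any one day 1 library, of either restricted library of day 5 and of replicate 2 of day 5 control (highest BH-adjusted p = 0.139), while that of Dll1 kept it in all 18. In the other pathway list Dtx4 had a weaker effect at day 5, by 44.9 points, and Fbxw7 and Neurl1a had a stronger one, by −18.9 and −13.8 points.

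Along the gene bodies, mean cover in WT was higher in the last 50% than in the first 50% for all 7 genes whose strand the table gives. At day 1 the restricted means of the 3 receptors and Jag2 were lower by more in the first 50% of the body than in the last 50%. In control medium at day 1 the last 50% of the body was fully covered in Notch1, Notch3 and Jag2 and 97.0% covered in Notch2. The first 50% was covered to 77.2% in Notch1, 45.7% in Notch2, 88.4% in Notch3 and 37.5% in Jag2. Under restriction at day 1 the last 50% kept 94.9% in Notch1, 77.1% in Notch2, 75.3% in Notch3 and 95.3% in Jag2, while the first 50% had 17.2%, 13.6%, 53.4% and 24.8%. In the first 10% of the body, mean cover went from 58.6% to 1.89% in Notch1, from 27.2% to 0% in Notch2 and from 59.3% to 0% in Notch3. At day 5 this held for Notch1, Notch2 and Jag2 but not for Notch3, where the first 50% went from 73.7% to 54.7% and the last 50% from 99.3% to 75.2%. These are means of 2 libraries, given as a description and not tested. The last 50% of Notch3 includes 10673 bases shared with Gm38585 and 3142 shared with Gm41568. They were not left out here, so its values along the body cannot be assigned to Notch3 alone.

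Dll1 had no cover in the first 20% of its body in any WT library. The segment shared by both day 1 control libraries began at the 3′ side and reached 4294 bp (chr17:15367626-15371919), with a second of 1721 bp further 5′. Both day 5 restricted libraries shared 3573 bp over nearly the same 3′ stretch (chr17:15367629-15371201) and had 0% in the first 50% of the gene. At day 0 and at day 1 under restriction the shared segments were 524 bp and 377 bp. Thus 78.4% of the last 50% of Dll1 was covered at day 5 under restriction, against 14.8% at day 1.

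In Jag1 the higher mean under restriction at day 5 lay on the 3′ side, where the last 50% had 64.4% against 43.4%, while the first 50% had 7.96% against 15.6%. Rbpj was nearly bare over its first 50%, at 0% to 2.55% in the 5 WT groups. Its last 10% held 46.8% to 66.0% in all 5 groups, and at day 5 it had 66.0% in control medium and 57.4% under restriction. The table gives no strand for Hes1, Hey1 and Heyl, so they are described along the chromosome. Hes1 peaks in unrestricted libraries filled the 50% of the body with the higher coordinates, to 87.4% to 100% by group, and those of Hey1 covered the 50% with the lower coordinates to between 50.7% and 93.3%.

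Bases inside peaks in all 10 WT libraries made up 51.0% of Notch1, 49.8% of Jag2, 45.2% of Notch3 and 39.3% of Notch2. They made up 3.94% of Rbpj, 2.22% of Dll1 and 0.399% of Jag1, and 0% of Hes1, Hey1 and Heyl. As a share of the gene body, the part covered in all WT libraries was thus large in the receptors and Jag2 and small or nil in the other 6 genes.

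**Figure D3:**
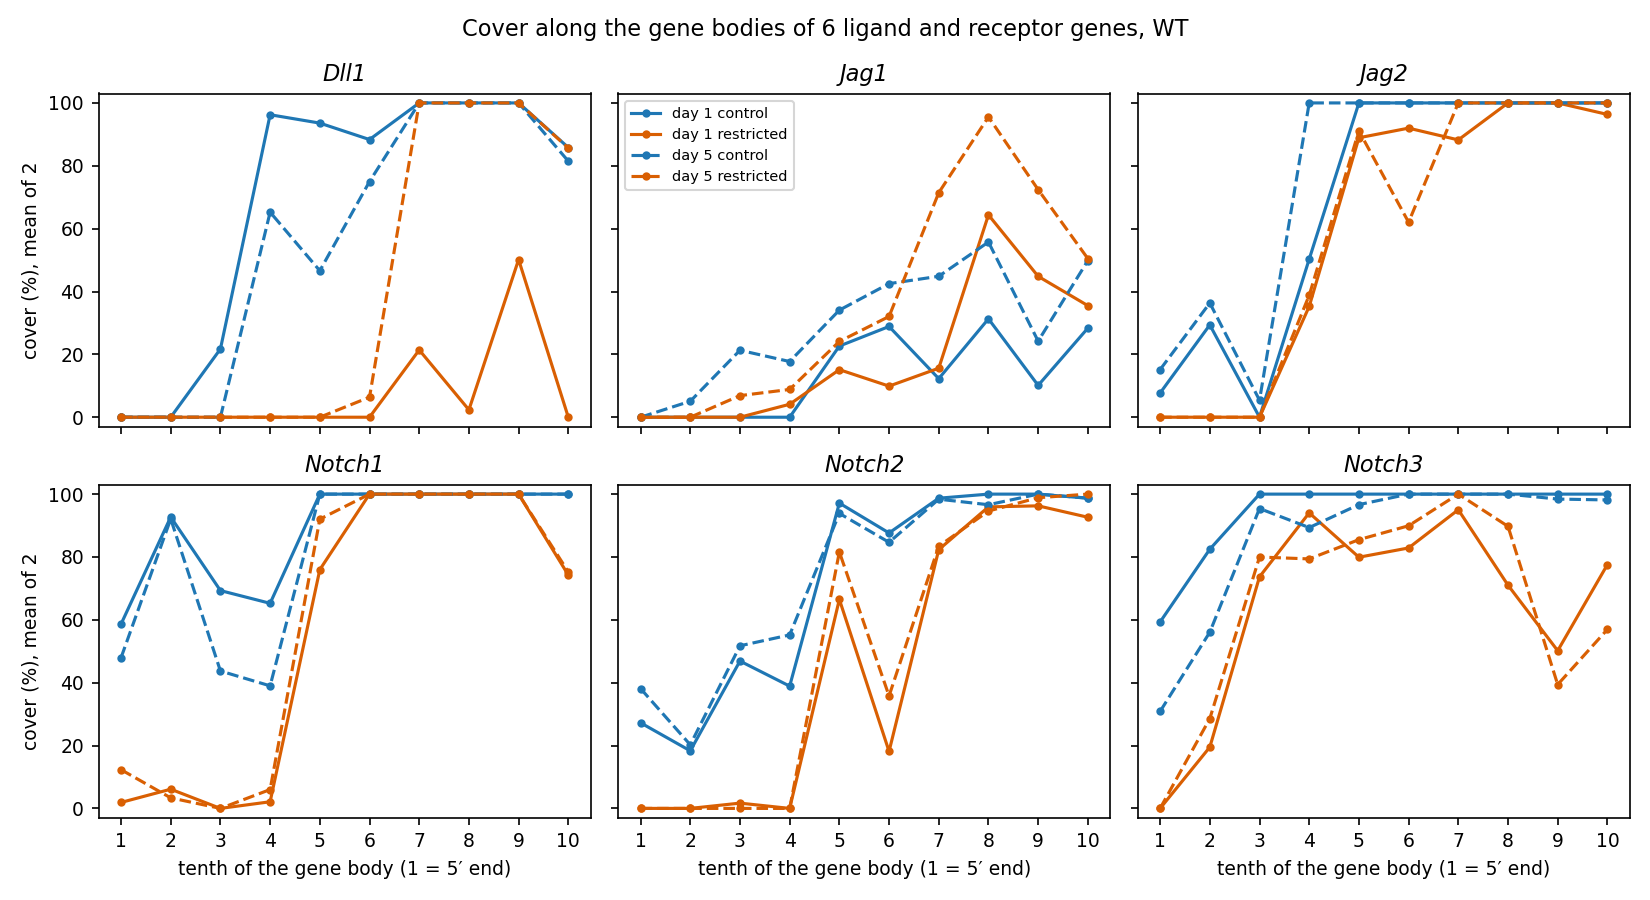
Mean cover of 2 WT libraries (y axis, percent) in 10 equal bins of the gene body from the 5′ end (x axis) for 6 genes whose strand is known. Blue is control and orange restricted, solid day 1 and dashed day 5. In Notch1 and Notch2 the orange lines lie below the blue lines over the first 5 bins, and in the first bin of Notch1 they are at 1.89% at day 1 and 12.3% at day 5.

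The rank of a gene within its library depends on how many genes have no cover there, and is given as a description. Dll1 had more cover than 51.5% and 54.4% of the 19300 genes at day 0 and than 90.04% and 85.2% at day 1 in control medium. Restricted libraries placed it above 56.1% and 60.9% at day 1 and above 76.5% and 78.0% at day 5, which overlapped the 79.0% and 76.2% of control medium at day 5. Notch2 stood between 82.3% and 89.9% in all 10 WT libraries. Jag1 stood at 63.5% and 63.8% in control medium and at 76.0% and 75.1% under restriction at day 5. By the authors' fold enrichment, the top peak of each receptor was at or above 87.7% of peaks in every WT list, the lowest being Notch3 in a restricted library of day 5. At day 1 in control medium the top Notch1 peak was at or above 99.9% of peaks in both lists. The top Dll1 peak was at or above 93.3% and 85.3% there, and its small restricted peaks at day 1 were at 2.15% and 11.2% of their lists. The widest peaks over Notch3 at day 1 were 41.9 and 40.3 kb in control medium and 12.7 and 5.25 kb under restriction. Over Notch2 they were 45.9 and 54.8 kb in control medium and 24.7 and 19.99 kb under restriction. At day 5 the widest Notch3 peaks were again shorter under restriction, at 10.05 and 12.8 kb against 28.8 and 20.5 kb, but those of Notch2 overlapped, at 40.6 and 23.7 kb against 34.1 and 37.5 kb.

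The lines labelled Setd2 KO were compared with WT across the 5 conditions. Cover was lower in the KO lines over 8 of the 10 genes, a share near the 76.6% of all 12931 genes with cover in any library that were called the same way. Hes1, Hey1 and Heyl had no peak in any of the 10 KO libraries, so they entered this test only through WT. Their differences could therefore only favour WT, and their calls within the 8 are no support for that direction. Dll1 and Rbpj missed the threshold, and both were covered more widely in KO line 1 at day 5 than in WT. KO line 2 was at 0% for 8 genes in all 5 libraries and reached only 0.206% in Notch2 and 0.591% in Rbpj, both at day 5 in control medium.

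The mean over conditions of WT minus KO was 78.2 points for Notch3, 71.5 for Notch1, 68.4 for Jag2 and 50.01 for Notch2. For these 4 the exact permutation test within condition, two-sided, gave p = 0.000257, the smallest possible over 7776 arrangements (BH-adjusted p = 0.000449). In each of them both KO libraries lay below both WT libraries in all 5 conditions. The difference was 35.4 points for Hes1 and 22.6 for Hey1 (exact permutation p = 0.00926, BH-adjusted p = 0.0125). It was 28.3 points for Heyl (exact permutation p = 0.00154, BH-adjusted p = 0.00235) and 22.7 for Jag1 (exact permutation p = 0.000772, BH-adjusted p = 0.00122). For Hes1, Hey1 and Heyl, without cover in any KO library, the direction was fixed in advance. At a −log10 q of at least 3 Hey1 lost its call, at 11.6 points (exact permutation, BH-adjusted p = 0.375), and Jag1 kept it at 4.50 points (BH-adjusted p = 0.0027). The libraries of a KO line come from the same line, which the permutation does not model.

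Dll1 in KO line 1 was at 0% at day 0 and at day 1 under restriction, at 32.1% at day 1 in control medium, and at 73.3% and 51.1% at day 5 in control and restricted medium. Its day 5 values lay above both WT libraries of each medium. Rbpj in KO line 1 was at 0% until day 5 and then at 49.5% in control medium and 18.3% under restriction, also above both WT libraries of each medium. Jag1 at day 5 in control medium, at 33.1%, was the remaining such value. The share of all genes above both WT libraries in this line was not counted, so these values are not shown to be particular to these genes. The WT minus KO difference was 20.3 points for Dll1 (exact permutation p = 0.0525, BH-adjusted p = 0.0664) and 9.33 for Rbpj (exact permutation p = 0.0782, BH-adjusted p = 0.0972). Without KO line 1 they were 35.9 and 16.1 points and passed (exact permutation, BH-adjusted p = 0.00599 for each); without KO line 2 they were 4.61 and 2.61 points (BH-adjusted p = 0.568 and 0.695).

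The day 5 peaks of KO line 1 were not all where WT had them. Of the Dll1 bases covered in KO line 1 at day 5, 83.7% lay inside WT peaks in control medium and 51.7% under restriction. For Rbpj these shares were 60.4% and 34.3%, for Jag1 74.8% and 79.1%, and for Notch2 98.9% and 86.7%. In control medium they were 100% for Notch1, Notch3 and Jag2, which had no cover in this line under restriction. The share over all genes was not computed, so these values are a description of the members only. In Rbpj the first of 10 equal bins of the body, upstream of both listed promoters and at 0% in all WT libraries, was covered to 29.2% in control medium and 11.3% under restriction. The cover ran on outside the gene. The 10 kb next to this 5′ end were covered to 29.3% and 28.8% in KO line 1, and to 0% in all WT libraries. The third bin of Dll1 was covered to 84.8% and 33.0%, against 0% in the WT libraries of day 5. Notch2 was the member with cover in all 5 libraries of KO line 1, at 19.6% at day 0, 19.7% and 0.259% at day 1 and 48.4% and 35.4% at day 5 in control and restricted medium. Notch1 had a peak in line 1 only at day 5 in control medium, at 22.1%, and Notch3 and Jag2 reached 1.51% and 3.24% there. With 1 library per line and condition, neither day nor medium was tested in the KO lines.

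**Figure D4:**
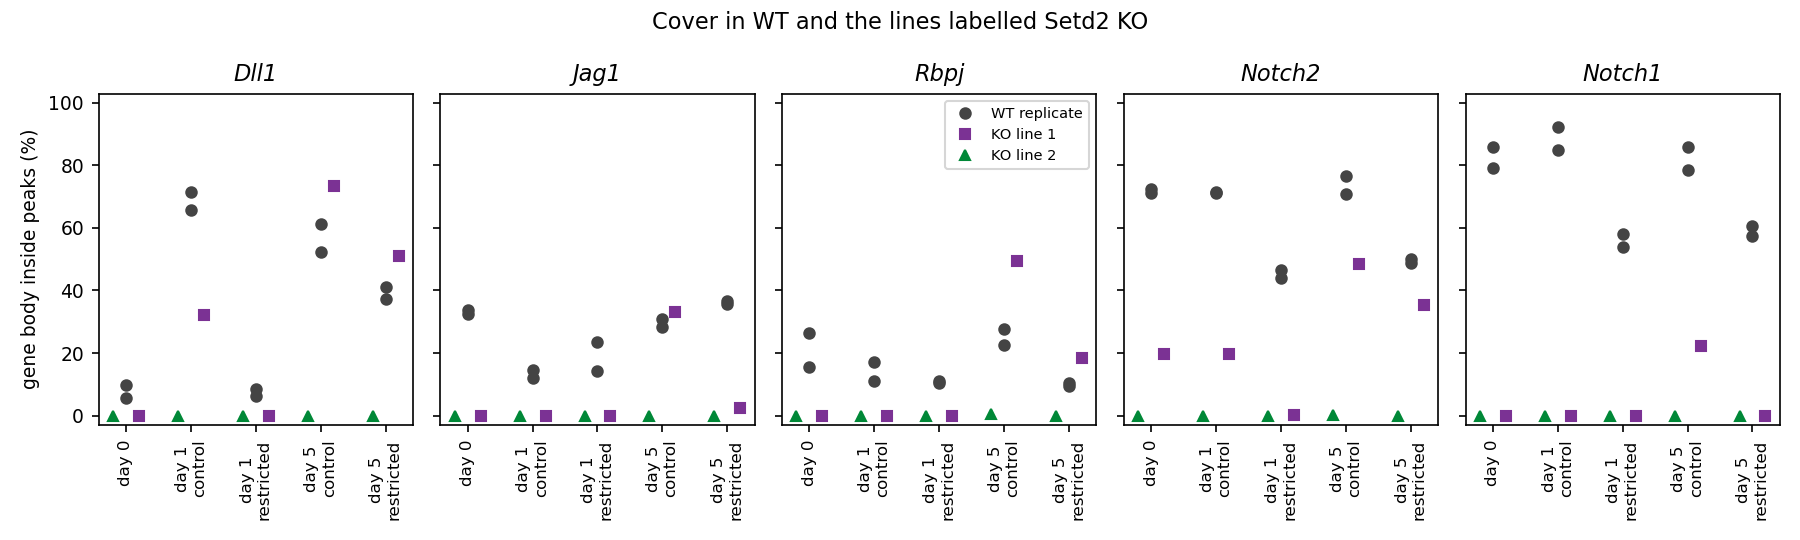
Percent of the gene body inside peaks (y axis) by condition (x axis) for 5 genes. Circles are the 2 WT replicates, squares KO line 1 and triangles KO line 2. At day 5 the squares of Dll1 and Rbpj lie above both circles in each medium, while those of Notch1 and Notch2 lie below.

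Among all tested genes, those whose cover followed a member most closely over the 10 WT libraries are given as a description, since the libraries share groups and depth. For Dll1 they were Hic1 (Pearson r = 0.968), Coro2b (r = 0.968) and 6430548M08Rik (r = 0.948). For Heyl they were Pmvk (r = 0.969), Lmf1 and BC034090, and for Hey1 Foxo4 (r = 0.952), Mpig6b and Csf1r. Hes1 was matched most closely by Cfl1 (r = 0.994) and Nfe2. Notch1 was matched by Kdm6b (r = 0.989), Flnc and Iffo1, Notch2 by Iqsec1 (r = 0.996), Cnksr3 and Afap1, and Notch3 by Med30 (r = 0.972), Rfx5 and Slc25a3. Jag1 was matched by Washc2 (r = 0.967) and Wdr48, Jag2 by Stimate (r = 0.979) and Cfap73, and Rbpj by Rabep1 (r = 0.981), Spred1 and Adamts6. No member was among the 3 closest genes of another member.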

How the data were processed

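H3K36me3 ChIP-seq was deposited as 20 broad-peak lists, 1 per library; the peak caller and its control are not given in the sources used here, and GRCm38 is the build per the submitters' processing notes. Fold enrichment per peak is the authors', as is the deposited −log10 q; they were used within single lists only, for ranks and for a cutoff. Drosophila spike-in chromatin was added, per the labels' protocols; cover was not scaled by it. Peak lists hold no read counts, so depth is unknown and no counting interval is given. The input was not used.

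Overlapping or touching peaks were merged, and the percent of each RefSeq gene body inside them was computed with numpy 2.4.6 and pandas 2.3.3. For WT, limma 3.58.1 (lmFit, contrasts.fit, eBayes with trend and robust; R 4.3.3) was fitted to 10 libraries in 5 groups for 9512 genes with mean cover of at least 5%, which all 10 members passed, with BH adjustment per comparison and a threshold of 0.05. WT and KO lines were compared by an exact permutation test within condition over genes with any cover. Steps were tested on simulated data. Alternatives were a −log10 q of at least 3, lists of equal covered length, centring on library medians, other filters, unshared gene bodies, fits of the compared libraries alone, a replicate block and omitted libraries.

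Members, lists and tests were chosen with earlier results of these data known. Named genes are all members, at most 4 called genes of the other list per direction and comparison by size of difference, and the 3 closest genes by Pearson r; some genes under this rule are not reported here. Replicate numbers did not pair the WT libraries: replicate differences correlated between groups at −0.439 to 0.0616. Of the other list, Hes5 (1747 bp) and Psenen (1763 bp), and of the markers Cd68 (1958 bp), are under 2 kb and were not tested.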

Additional observations from a re-analysis of the deposited data

Results flagged for a closer look

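The restriction effect differed between day 5 and day 1 for 2 members in a test of the difference itself: Dll1 by 43.55 points (limma, BH-adjusted p = 0.0063) and Heyl by 30.84 points (BH-adjusted p = 0.0343). Groups of 2 libraries are too small for a search for single libraries that stand apart.

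In 4 cases KO line 1 moved against both WT libraries, and none of these differences was tested. From day 1 to day 5 in control medium Dll1 changed by 41.2 points in KO line 1 against −11.7 in WT. From day 0 to day 5 in control medium Jag1 changed by 33.1 points against −3.70 in WT. Under restriction at day 5 Jag1 changed by −30.6 points against 6.64 in WT. From day 1 to day 5 in control medium Notch3 changed by 1.515 points against −7.69 in WT. Each value of KO line 1 rests on 1 library per condition, and covered length in this line also differed between these conditions, at 13.9 Mb for day 1 and 74.1 Mb for day 5 in control medium and 45.8 Mb under restriction at day 5; its part in the result was not tested.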

How the results depend on the processing

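Of 34 calls on members, 18 held in every alternative run, among them all 7 of restriction at day 1. Another 16 were lost in at least 1, and 13 of 36 uncalled values gained a call in at least 1. The KO comparison had only 6 alternatives per gene, against 17 or 18 in the WT comparisons. It was not run with lists of equal length or after centring, so its calls were checked less. In the WT comparisons Jag1 has no value at a −log10 q of at least 3 and Hey1 none with lists of equal length, being under the filter on cover there. Peak lists limit the rest: depth is unknown and 2 libraries per group set the spread.

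The comparison of day 1 with day 0 called 629 genes, 196 with lists of equal length, 333 after centring, and 0 by limma on the compared libraries alone (1897 at an unadjusted p under 0.05), where 0 members were called (4 unadjusted); omitting 1 library gave 142 to 986 genes. Day 5 against day 1 called 2194, 1295 at a −log10 q of at least 3, and 1108 to 2692 with 1 library omitted. Day 5 against day 0 called 2641, 1617 on the compared libraries alone and 1759 to 2659 with 1 omitted; 1 member was called with lists of equal length. Restriction at day 1 called 3648 genes, 2291 with lists of equal length and 2354 to 3984 with 1 library omitted. Restriction at day 5 called 4355, 2896 at a −log10 q of at least 3 and 2721 to 4660 with 1 omitted; members called were 9, 5 at that q, 4 with lists of equal length, 3 after centring and 5 to 9 with 1 omitted, 5 without replicate 1 of either medium. The difference between days called 495 genes, 212 to 659 with 1 omitted, and 1 to 2 members. The replicate block left 466, 1988, 2457, 3436, 4175 and 399 genes called in the 6 comparisons and lost 1 member call, that of Heyl between days (30.84 points, BH-adjusted p = 0.0586), leaving 1 member there; the shared numbers do not pair the samples. The cause of these changes was not tested.

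Called values that turned sign were Jag1 from day 0 to day 1 (0.227 with lists of equal length) and, after centring, Rbpj under restriction (12.1 at day 1, 1.495 at day 5) and Jag2 at day 5 (0.186). Values that passed in neither fit turned sign too. With lists of equal length Notch2 was 8.42 from day 0 to day 1 and −8.75 from day 1 to day 5, and from day 0 to day 5 Jag1 was 1.43, Jag2 4.79, Notch1 0.296, Notch2 −0.327 and Rbpj −4.42. After centring Notch2 was 7.91 and Rbpj 1.65 from day 0 to day 1, Notch2 −3.70 from day 1 to day 5, Notch1 2.02 from day 0 to day 5, and Jag2 6.52 under restriction at day 1. At a −log10 q of at least 3, Notch1 was 0.490 and Rbpj −2.32 from day 0 to day 5. With 1 library omitted, the range crossed 0 from day 0 to day 1 for Hes1 (−0.922 to 3.18) and Notch2 (−1.20 to 0.0687), from day 1 to day 5 for Notch2 (−0.365 to 5.17) and Hes1 (−20.8 to 0.840), from day 0 to day 5 for Jag2 (−10.4 to 2.23), Notch1 (−4.03 to 3.31), Rbpj (−1.11 to 9.80), Notch2 (−0.930 to 4.61) and Hes1 (−19.7 to 1.97), and between days for Jag1 (−3.51 to 5.62), Notch2 (−1.10 to 4.44) and Hes1 (−0.840 to 20.8).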
